A study of Mus musculus with 20 samples.

Results

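The Siglecs are cell-surface lectins that bind sialic acid, the acidic sugar at the ends of many glycan chains. All probe sets of 7 mouse Siglec genes (Siglech, Siglecf, Siglecg, Siglece, Siglec1, Cd22 and Cd33) were taken from the array by gene symbol, whatever their values. This gave 10 of the array's 45101 probe sets: 3 for Siglec1, 2 for Cd22 and 1 for each of the other genes.

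RNA was measured on Affymetrix Mouse 430 2.0 arrays in 10 groups of 2 arrays each, all from bone marrow of C57BL/6 mice with no genetic change named in the labels. One group was common dendritic cell progenitors isolated straight from marrow (in vivo CDP). Multipotent progenitors (MPP) and CDP had been amplified in culture, and plasmacytoid dendritic cells (pDC) and conventional dendritic cells (cDC) had been differentiated from such amplified progenitors. In a second series, cultured CDP were measured untreated (0 h) and after 4, 8, 12 and 24 h of TGF-β1, a cytokine that shapes dendritic cell development. Untreated cultures of the later times are not among the groups, so TGF-β1 and hours in culture cannot be told apart. The labels do not name the growth factors of the cultures, the TGF-β1 dose, the purity of the cells or whether replicates came from separate cultures or animals. The p-values therefore measure only the spread between these arrays, which may be technical.

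Most Siglecs carry inhibitory motifs in their cytoplasmic tails that recruit the phosphatases SHP-1 (Ptpn6) and SHP-2 (Ptpn11) and so dampen signals from neighbouring receptors. Siglec-H has no such motif and instead pairs with the adaptor DAP12 (Tyrobp). It is widely used as a surface marker of mouse pDC, where its crosslinking lowers type I interferon output. CD22 and Siglec-G restrain B-cell receptor signalling, Siglec-F marks mouse eosinophils and alveolar macrophages, Siglec-E and CD33 belong to myeloid cells, and Siglec-1 (CD169) is a sialic acid receptor of tissue macrophages.

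In RefSeq's gene order for assembly GRCm38.p6, Siglec1 lies on chromosome 2 and the other 6 genes on chromosome 7. Siglecf and Siglecg are next to each other among protein-coding genes. There are 9 protein-coding genes between Siglecg and Cd33 and 4 between Cd33 and Siglece. Cd22 and Siglech lie farther off, with 131 such genes between Cd22 and Siglecf and 190 between Siglece and Siglech. RefSeq promoter windows of 250 bases before to 50 bases after a start site were found for 6 of the 7 genes. Those of Siglech, Siglecf and Cd33 are printed 5′ to 3′ on the gene's strand. Among the Siglecs the level of Siglech differed most between pDC and the other cells and that of Siglecf most over the TGF-β1 series, and Cd33 is shown for comparison with Siglecf. Capitals in Siglech mark the 3 matches of the E-box CANNTG and the 1 match of GAGGAA, the core bound by PU.1 and Spi-B, searched on both strands. Capitals in Siglecf and Cd33 mark a shared run of 16 bases.
Siglech, chr7:55767934-55768233, plus strand: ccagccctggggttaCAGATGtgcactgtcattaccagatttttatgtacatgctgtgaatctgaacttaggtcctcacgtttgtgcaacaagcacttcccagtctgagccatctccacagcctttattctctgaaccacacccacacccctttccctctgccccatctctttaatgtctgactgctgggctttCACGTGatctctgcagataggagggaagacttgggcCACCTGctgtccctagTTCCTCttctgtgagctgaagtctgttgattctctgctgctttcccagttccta
Siglecf, chr7:43351091-43351390, plus strand: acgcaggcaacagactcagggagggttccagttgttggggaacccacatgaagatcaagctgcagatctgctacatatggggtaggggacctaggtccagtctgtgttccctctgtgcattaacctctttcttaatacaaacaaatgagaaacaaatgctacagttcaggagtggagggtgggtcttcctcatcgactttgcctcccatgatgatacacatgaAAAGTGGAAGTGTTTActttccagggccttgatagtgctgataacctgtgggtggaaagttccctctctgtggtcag
Cd33, chr7:43533122-43533421, minus strand: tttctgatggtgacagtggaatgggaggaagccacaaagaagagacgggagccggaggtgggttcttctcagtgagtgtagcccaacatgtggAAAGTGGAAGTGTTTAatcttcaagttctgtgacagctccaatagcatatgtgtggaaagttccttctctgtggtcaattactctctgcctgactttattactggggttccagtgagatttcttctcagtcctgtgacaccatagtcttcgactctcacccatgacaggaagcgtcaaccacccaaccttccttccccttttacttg
The 16-base run was found, on either strand, in 2 of 27025 promoter windows, and other pairs of Siglec windows shared runs of 7 to 10 bases. Matches to CANNTG were present in 72.1% and to GAGGAA in 28.3% of those windows, so the Siglech matches are a description of its sequence and not evidence of binding.

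All values are log2 probe set intensities as deposited, and probe sets were tested where 2 or more arrays of a fit lay above 5. The arrays of in vivo CDP, MPP, CDP, pDC and cDC shared a floor of 2.25, at which 33.7% to 35.5% of their probe sets lay, and their medians were 2.46 to 2.52. On TGF-β1 arrays that floor was missing and medians were 5.29 to 5.36, so levels were never compared across these 2 parts. In vivo CDP RNA was extracted with another kit than all other groups, and it was labelled with another kit and in a smaller amount than the RNA of MPP, CDP, pDC and cDC. Those steps cannot be told apart from the group. Markers of the dendritic cells were set beside their labels. On both pDC arrays 9 of 10 measured pDC markers lay above 5, with Tlr9 under 5, and 9 of 9 measured cDC markers did so on both cDC arrays. The lists were not exclusive: 7 of 10 pDC markers lay above 5 on both cDC arrays and 5 of 9 cDC markers on both pDC arrays.

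Siglech was the family member with the widest range across the cell types and was highest in pDC. Its level was 6.20 and 6.37 in in vivo CDP, 2.33 and 2.31 in MPP, 3.91 and 2.68 in cultured CDP, 13.19 and 13.15 in pDC, and 6.94 and 7.62 in cDC. Both pDC arrays lay far above every other array, and both MPP and both CDP arrays lay under 5. In pDC the level was at least 289-fold that in CDP, with a log2 difference of 9.88 ± 0.42 (SE, adjusted p = 3.17e-05 by limma), and 59.5-fold that in cDC, with a log2 difference of 5.89 ± 0.42 (adjusted p = 0.000225). The cDC arrays were in turn at least 4.86-fold above CDP (log2 difference 3.98 ± 0.42, adjusted p = 0.000927). In the order of mean levels (MPP, CDP, in vivo CDP, cDC, pDC), neither CDP against MPP (0.97, adjusted p = 0.301) nor in vivo CDP against cDC (-0.99, adjusted p = 0.0624) passed the threshold, and the other neighbours did. In vivo CDP against cDC passed when the arrays were quantile-normalized (-1.17, adjusted p = 0.0365) or when values under 5 were raised to 5 (adjusted p = 0.00682).

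Beside the level of Siglech in cDC, some markers of pDC were also detected there, while others were not higher than in CDP. The chemokine receptor Ccr9 was at 5.53 and 7.14 in cDC, against 2.25 on both CDP arrays. The surface protein Ly6d was at 6.68 and 7.53 in cDC, against 3.99 and 2.83 in CDP. Of the 9 pDC markers tested, 6 were called higher and 1 lower in cDC than in CDP. Over all probe sets, 40.2% were called and 16.6% were called higher. The 1 called lower was Cox6a2 (-6.74 ± 0.64, adjusted p = 0.000658), while Tcf4 (0.03) and Tlr7 (0.82) were not called. The summed intensity of the list was 7627.5 to 9849.1 in cDC, against 6551.5 to 9868.7 in CDP. The part of these markers in the Siglech level of cDC was not tested. In these bulk samples, fewer cells of a type and less RNA per cell cannot be told apart.

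Siglecf had another order, highest in MPP and lowest in pDC. It was at 3.99 and 4.87 in in vivo CDP, 7.94 and 8.21 in MPP, 6.24 and 5.80 in cultured CDP, 2.87 and 2.87 in pDC, and 7.41 and 6.71 in cDC. The 5 groups did not overlap, and in pDC and in vivo CDP all 4 arrays lay under 5. In pDC the level was at least 4.17-fold lower than in cDC (log2 difference -4.19 ± 0.28, adjusted p = 0.000187) and at least 2.03-fold lower than in CDP (-3.15 ± 0.28, adjusted p = 0.00033). Siglecf thus separated the 2 dendritic cell types in the direction opposite to Siglech.

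The steps of Siglecf between MPP, CDP and cDC were smaller, and their calls were lost in several runs. Leaving out an array leaves 1 in its group, so a call lost there does not show that the difference rests on 1 array. Without an array the difference was -2.28 to -1.84 in CDP minus MPP. It was 0.70 to 1.39 in cDC minus CDP and -1.36 to -0.67 in cDC minus MPP. CDP were 4.17-fold lower than MPP (-2.06 ± 0.28, adjusted p = 0.0102), but the adjusted p was 0.0701 without MPP replicate 1, 0.0941 without MPP replicate 2, 0.057 without CDP replicate 2 and 0.0924 with no filter on low values. In cDC the level was 2.06-fold above CDP (1.04 ± 0.28, adjusted p = 0.0267), which was lost without CDP replicate 2 (0.82, adjusted p = 0.125), without cDC replicate 1 (0.70, adjusted p = 0.116) and with no filter (adjusted p = 0.126). It was 2.03-fold below MPP (-1.02 ± 0.28, adjusted p = 0.0253), and this call was lost without either MPP array, without cDC replicate 2 (-0.67, adjusted p = 0.117) and with no filter (adjusted p = 0.118).

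Markers of eosinophils and of other myeloid cells were set beside it. Of the 6 eosinophil markers measured, Epx, Prg3, Ccr3, Il5ra and Alox15 lay under 5 in all 5 groups, and Prg2, the eosinophil major basic protein, was at 5.68 and 4.79 in MPP, against 2.30 and 2.26 in CDP. In in vivo CDP, where Siglecf lay under 5, Prg2 was at 7.95 and 5.18. The summed intensity of the list was 60.0 to 279.4 in in vivo CDP, 51.7 to 75.1 in MPP, 28.8 to 29.5 in CDP, 28.5 on both pDC arrays and 28.5 to 28.6 in cDC. The lower in vivo CDP value lay within the range of MPP, and Prg2 was the only marker of the list above 5 on any array. Mast cell and basophil markers summed to 4802.3 to 5058.9 in MPP, against 104.5 to 180.4 in cDC, and neutrophil markers to 40542.6 to 51116.2 in in vivo CDP and 109153.4 to 117592.3 in MPP, against 231.7 to 235.8 in cDC. In cDC all 6 eosinophil markers were under 5. Macrophage markers summed to 1320.6 to 1974.9 in cDC, against 118.4 to 267.1 in CDP and 457.4 to 564.6 in in vivo CDP. In pDC, where Siglecf was lowest, the higher array reached 1349.8, within the cDC range, and the lower lay below both CDP arrays. Of the 10 macrophage markers, 7 lay under 5 on both cDC arrays. Adgre1, which encodes the macrophage protein F4/80, was at 10.02 and 10.12 in cDC, against 7.37 and 5.75 in CDP. It was not called in cDC against CDP (3.51, adjusted p = 0.0802), and 1 of the 3 macrophage markers tested was called higher. The part of these lists in the Siglecf levels of MPP and cDC was not tested.

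Cd22 and Siglecg, the members known from B cells, were both high in the differentiated dendritic cells. The leading Cd22 probe set, the brighter of its pair, was at 7.09 and 7.66 in in vivo CDP, 3.57 and 3.20 in MPP, 6.28 and 5.10 in cultured CDP, 9.45 and 10.05 in pDC, and 9.93 and 9.79 in cDC. All pDC and cDC arrays lay above all progenitor arrays, and the pDC and cDC ranges overlapped. Cd22 was 16.7-fold higher in pDC than in CDP (4.06 ± 0.41, adjusted p = 0.000511) and 18.0-fold higher in cDC than in CDP (4.17 ± 0.41, adjusted p = 0.00076). Between pDC and cDC the difference was -0.10, with a 95% confidence interval of -1.09 to 0.88.

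The second Cd22 probe set had the same order of group means. It was at 3.44 and 4.07 in in vivo CDP, 2.34 and 2.41 in MPP, 2.91 and 2.72 in cultured CDP, 7.35 and 8.04 in pDC, and 8.11 and 7.54 in cDC. All 6 progenitor arrays lay under 5 here, so that folds over CDP are lower bounds, at least 6.47 in pDC and at least 7.09 in cDC. CDP differed from MPP only by the first probe set (2.31 ± 0.41, adjusted p = 0.0268, at least 1.61-fold higher in CDP). That call was lost without either MPP array (adjusted p = 0.125 without replicate 1, 0.175 without replicate 2), without CDP replicate 1 (1.72, adjusted p = 0.0736), with no filter (adjusted p = 0.197) and with values under 5 raised to 5 (0.69, adjusted p = 0.467).

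Siglecg was at 6.97 and 7.11 in in vivo CDP, 4.85 and 4.45 in MPP, 4.59 and 3.86 in cultured CDP, 7.33 and 8.00 in pDC, and 8.43 and 8.24 in cDC. Both cultured progenitors lay under 5 on all arrays, and the other 3 groups lay above it. The level was at least 6.34-fold higher in pDC than in CDP (3.44 ± 0.34, adjusted p = 0.000458) and at least 10.1-fold higher in cDC than in CDP (4.11 ± 0.34, adjusted p = 0.000422). The pDC and cDC arrays did not overlap, but the difference of -0.67 (95% confidence interval -1.48 to 0.14) did not pass the threshold (adjusted p = 0.225). B cell markers were read beside both genes. Cd79a, Pax5 and Ebf1, which define the B cell lineage, lay under 5 on all 10 arrays, and Cd79b lay above 5 on all. Of 4 markers tested, Fcrla (6.27) and Blk (3.70) were called higher in pDC than in CDP, with 48.2% of all probe sets called. In cDC against CDP only Ms4a1 was called (4.34, adjusted p = 0.00379), with 40.2% of all called. Their part in the Cd22 and Siglecg levels was not tested. The B cell list summed to 764.6 to 1115.3 in pDC and 430.0 to 715.8 in cDC, against 378.8 to 503.1 in CDP, with the kinase Blk at 5.21 and 6.69 in pDC and at 2.25 on both CDP arrays.

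The remaining members were low or variable in these cells. Cd33 was at 3.98 and 3.27 in in vivo CDP, 5.76 and 4.20 in MPP, 6.30 and 4.66 in cultured CDP, 4.94 and 4.64 in pDC, and 4.68 and 4.64 in cDC. Only replicate 1 of MPP and of CDP lay above 5, and the spread within those 2 groups was as wide as the differences between cultured groups, none of which passed the threshold. The intervals are wide: Cd33 in pDC minus cDC was 0.13, with a 95% confidence interval of -1.41 to 1.67. Siglece lay between 2.25 and 2.28 and the 3 Siglec1 probe sets between 2.25 and 2.30 on all 10 arrays. These 4 probe sets were at or just above the floor, were not tested, and give only an upper bound on the level.

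**Figure D1:**
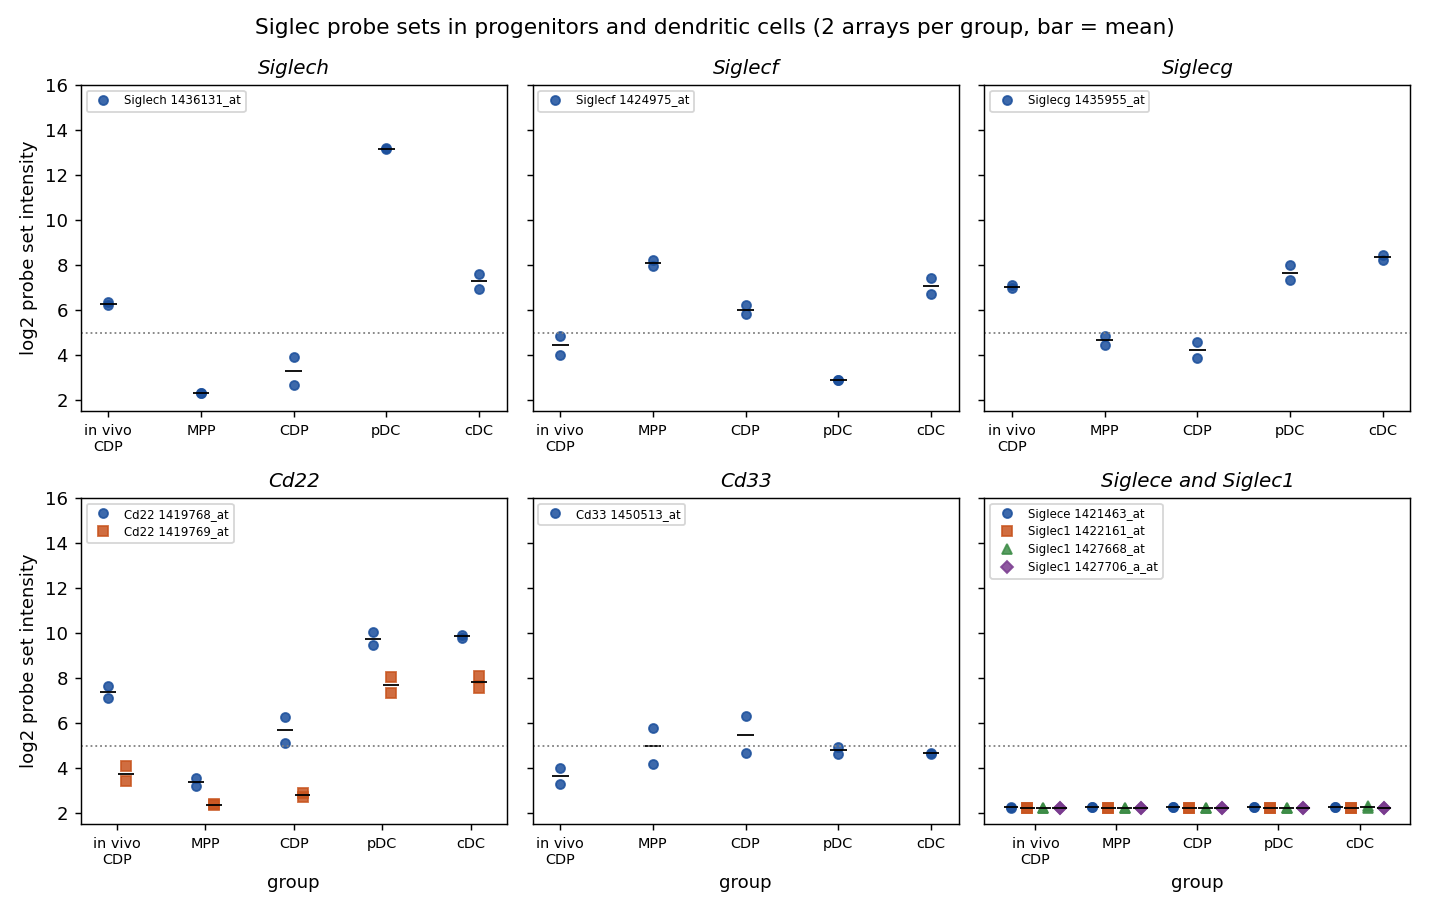
Log2 probe set intensity (y axis) of each Siglec gene in in vivo CDP, MPP, CDP, pDC and cDC (x axis). Points are arrays, 2 per group, bars are group means and the dotted line is the level of 5. Siglech stands at 13.19 and 13.15 in pDC, Siglecf falls to 2.87 there, Cd22 and Siglecg are high in pDC and cDC, and Siglece and Siglec1 lie at the floor.

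Of the 10 probe sets, 6 (of 5 genes) passed the filter on low values. Since a probe set could pass through a single group in which it was high, the counts describe these probe sets and not the family. In CDP against MPP 2 were called, against 4.92% of all 17501 probe sets tested. In pDC against CDP 5 were called, 4 higher and 1 lower, against 48.2% of all tested (21.9% higher, 26.4% lower). In cDC against CDP 5 were called, all of them higher, against 40.2% of all tested called in either direction and 16.6% called higher. In pDC against cDC 2 were called, Siglech higher and Siglecf lower, against 20.8% of all. Set against MPP, 5 were called in pDC and 5 in cDC, against 50.7% and 45.1% of all. With such shares of the whole array called, the number of Siglec calls is no result by itself, and the sizes and directions carry the description.

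**Figure D2:**
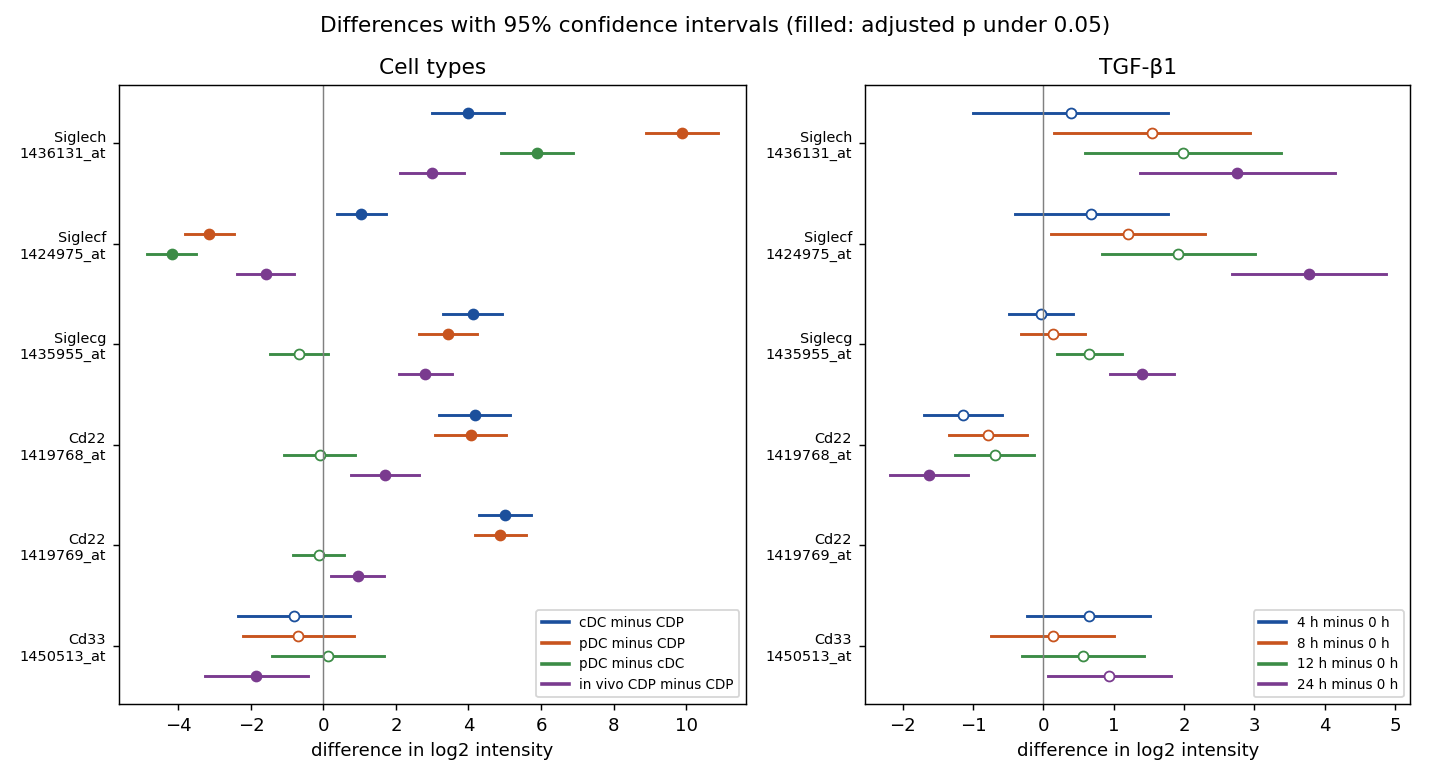
Difference in log2 intensity (x axis) of the 6 Siglec probe sets tested in the cell types, for 4 comparisons of cell types on the left and for 4, 8, 12 and 24 h of TGF-β1 minus 0 h on the right. Points are limma estimates, lines are 95% confidence intervals, and filled points passed an adjusted p of 0.05. The second Cd22 probe set was not tested in the TGF-β1 series. Siglech is 5.89 above and Siglecf 4.19 below zero in pDC minus cDC.

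In vivo CDP were compared with cultured CDP to ask how far the amplified progenitor matched its counterpart in marrow. Siglech was at least 2.44-fold higher in in vivo CDP (2.99 ± 0.39, adjusted p = 0.000861) and Siglecg at least 4.10-fold higher (2.81 ± 0.31, adjusted p = 0.000469). Siglecf was at least 2.03-fold lower (-1.59 ± 0.34, adjusted p = 0.00766), with an adjusted p of 0.0525 when no filter was used. All 6 tested probe sets were called, 4 higher and 2 lower, against 42.8% of 18027 probe sets in this fit (23.1% higher, 19.7% lower). Cd22 was 3.22-fold higher by its leading probe set (1.69 ± 0.40, adjusted p = 0.012), and this was lost without CDP replicate 2 (1.10, adjusted p = 0.0547), without in vivo CDP replicate 2 (1.40, adjusted p = 0.0837) and with no filter (adjusted p = 0.0787). The second Cd22 probe set (0.94, adjusted p = 0.0438) and Cd33 (-1.85, adjusted p = 0.0428) lay mostly under 5. The first of these was lost without CDP replicate 1, CDP replicate 2 or in vivo CDP replicate 2, and Cd33 was lost without either in vivo CDP array. With values under 5 raised to 5, the second Cd22 probe set had no difference left and Cd33 had -0.65 (adjusted p = 0.244). Both calls were also lost with no filter (adjusted p = 0.17 and 0.213), and that of Cd22 with trend and robust eBayes (adjusted p = 0.0592).

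The mean Siglecg level of in vivo CDP lay nearer to those of pDC and cDC than to that of cultured CDP, while for Siglech it lay nearer to cDC than to cultured CDP and farthest from pDC. In vivo CDP differed from pDC by -6.88 ± 0.39 in Siglech (118-fold lower, adjusted p = 9.2e-06) and by -0.63 in Siglecg (adjusted p = 0.125, or 0.0435 with values under 5 raised to 5). The calls were 4 of 6 against pDC, where 54.7% of all probe sets were called, 4 of 6 against cDC (50.9% of all) and 5 of 6 against MPP (44.4% of all). Among them, Siglecf against pDC (1.56) and the second Cd22 probe set against MPP (1.38) lay under 5 on all arrays compared. With values under 5 raised to 5, neither had a difference left. Siglecg was 2.46-fold lower in in vivo CDP than in cDC (-1.30 ± 0.31, adjusted p = 0.00973), with an adjusted p of 0.0572 without in vivo CDP replicate 1. Other marker lists also differed between in vivo CDP and CDP, and their part in the Siglec differences was not tested. Between in vivo CDP and CDP 42.8% of all probe sets were called, 23.1% higher and 19.7% lower in in vivo CDP. Of 8 neutrophil markers tested, 6 were called higher in in vivo CDP (list median 3.23), and of 5 stem and progenitor markers 4 were higher (list median 1.83). Of 9 pDC markers tested, 3 were higher and 3 lower (Cox6a2 -4.26, Tlr7 -2.39 and Tcf4 -0.81). Among the 9, Ly6d was at 6.65 and 6.98 on the in vivo CDP arrays, against 3.99 and 2.83 in cultured CDP, while Ccr9 lay under 5 in both groups.

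Genes whose profiles were most like those of Siglec members were named by Pearson correlation over the 10 arrays of in vivo CDP, MPP, CDP, pDC and cDC. These arrays share groups and a floor, so the coefficients describe likeness and carry no test. Siglech was most like Ly6d, itself a pDC marker (r = 0.997), followed by Dmac2 (0.994) and Inppl1 (0.989). Cd22 was most like Itgax, which encodes the dendritic cell integrin CD11c (r = 0.993), followed by Lsp1 (0.987) and Ubl3 (0.987). Siglecg was most like Tmsb4x (0.988), which encodes the actin-binding thymosin beta 4, followed by Vopp1 (0.983) and Tmem127 (0.981). Siglecf was most like B4galt6 (0.960), which encodes a galactosyltransferase, followed by Ptpn12 (0.959) and Pde8a (0.958). The profile of B4galt6 ranged from 3.77 to 10.94 on these arrays.

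Siglecs work through sialylated ligands and a set of kinases and phosphatases, and those genes were read from 4 lists chosen with the family. Each listed gene was counted once, by its brightest (leading) probe set, while the shares called are over all probe sets. With 1 probe set per gene the shares were higher. They were 4739 of 8899 in pDC against CDP and 4270 of 8899 in cDC against CDP. In pDC against CDP, 4 of 9 genes of sialic acid supply were called higher and 3 lower, with a list median of 0.33 against -0.04 over all probe sets tested, of which 48.2% were called. Cmah, which converts the sialic acid Neu5Ac to Neu5Gc, the form that mouse CD22 prefers, was at 10.77 and 10.53 in pDC, against 5.77 and 5.54 in CDP (5.00 ± 0.21, adjusted p = 2.89e-05). Gne, which makes the precursor of sialic acid, was higher (1.96 ± 0.26) and Npl, which breaks sialic acid down, was lower (-2.54 ± 0.27). In pDC against cDC, Cmah was also higher (5.70 ± 0.21, adjusted p = 2.27e-05), at 5.13 and 4.78 in cDC.

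Sialyltransferases attach sialic acid to glycans, and 12 of the 20 on the array were tested in the cell types. In cDC against CDP 8 were called higher and 1 lower (list median 1.38, against -0.10 over all, with 40.2% of all probe sets called), and in pDC against CDP 6 were higher and 2 lower (list median 1.29, with 48.2% of all called). The alpha-2,8-sialyltransferase gene St8sia6 separated the dendritic cells: it was at 4.35 and 4.35 in pDC, against 10.85 and 10.97 in cDC (-6.56 ± 0.38, adjusted p = 0.000107). Its level was 2.49 and 2.51 in CDP. St3gal6 was at 9.14 and 7.90 in pDC, against 4.72 and 3.04 in cDC (4.64 ± 0.62, adjusted p = 0.00293). St8sia1, the GD3 synthase gene, was high in both, at 9.85 and 10.28 in pDC and 9.97 and 9.77 in cDC, against 4.74 and 3.62 in CDP.

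Of 12 signalling genes, 7 were called higher and 1 lower in pDC than in CDP (list median 0.98, with 48.2% of all probe sets called), and 6 were higher in cDC than in CDP (list median 0.92, with 40.2% of all called). Blnk, an adaptor of B-cell receptor signalling, was at 12.04 and 11.84 in pDC, against 4.03 and 2.66 in CDP (8.59 ± 0.44, adjusted p = 5.1e-05). Tyrobp, the adaptor to which Siglec-H is bound, was at 14.54 and 14.53 in pDC and 13.46 and 13.56 in cDC, against 12.61 and 11.88 in CDP. It was higher in pDC than in CDP (2.29 ± 0.26, adjusted p = 0.000731) and than in cDC (1.02 ± 0.26, adjusted p = 0.0328). The kinase gene Syk was higher in pDC than in CDP (2.05 ± 0.23). The list of sialidase and O-acetylation genes had a median of 0.04 over 3 tested genes in pDC against CDP.

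In in vivo CDP against CDP, 8 of the 12 signalling genes were called higher and none lower (list median 0.75, against 0.03 over all, with 42.8% of all probe sets called and 23.1% higher). Of 12 sialyltransferases tested, 5 were called higher and 2 lower (list median 0.24), with St3gal4 (3.19 ± 0.50) and St8sia1 (2.32 ± 0.40) among the higher. Of 9 supply genes, 2 were called higher and 2 lower (list median 0.09). St6gal1, which makes the alpha-2,6-linked sialic acid that CD22 binds, was at 3.33 and 2.98 on the in vivo CDP arrays, against 10.37 and 10.10 in cultured CDP (-7.08 ± 0.30, adjusted p = 9.22e-06). Cmah was at 2.83 and 2.58 on the in vivo CDP arrays, against 5.77 and 5.54 in cultured CDP (-2.95 ± 0.20, adjusted p = 7.31e-05). Both genes lay under 5 on the in vivo CDP arrays, on which Cd22 was above both arrays of cultured CDP.

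**Figure D3:**
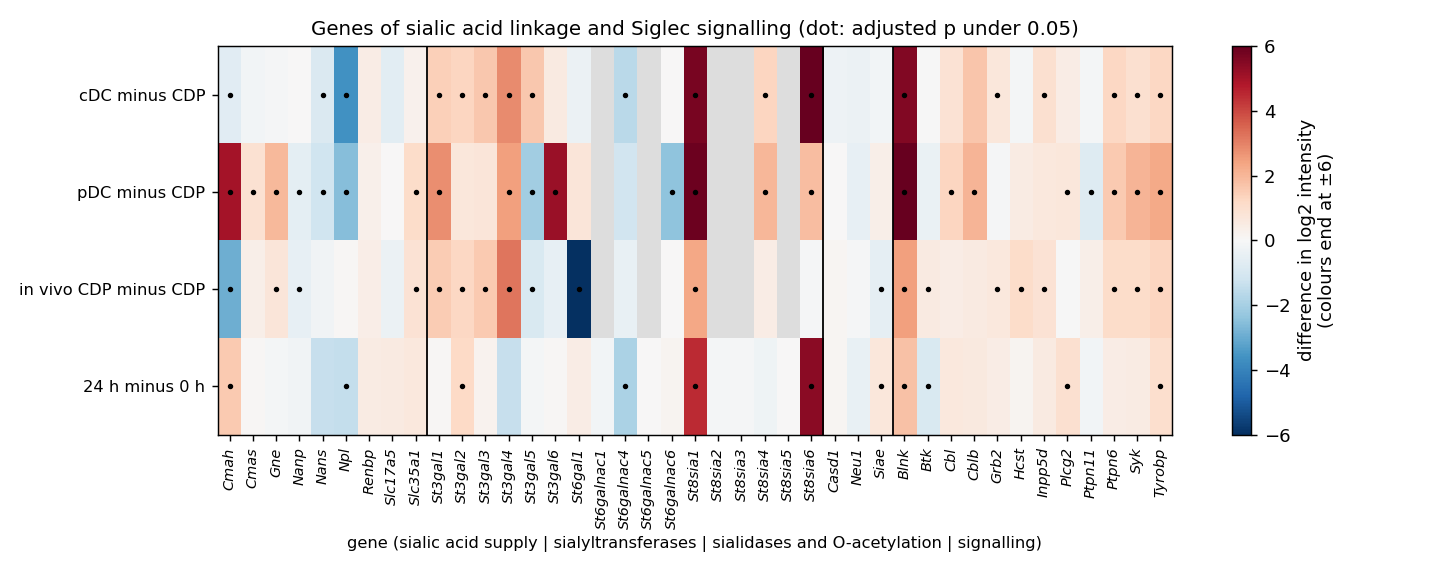
Difference in log2 intensity (colour) of genes of sialic acid supply, sialyltransferases, sialidases with O-acetylation, and signalling (x axis, in that order) for 4 comparisons (y axis). Dots mark an adjusted p under 0.05, grey marks genes not tested in that comparison, and colours end at 6 log2 units in either direction. Cmah is higher in pDC (5.00) and lower in in vivo CDP (-2.95) than in CDP, and St8sia6 and St8sia1 are higher at 24 h of TGF-β1 (5.42 and 4.47).

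In the TGF-β1 series Siglecf changed most among the Siglecs. Its level was 8.51 and 7.33 at 0 h, 9.18 and 8.03 at 4 h, 9.41 and 8.84 at 8 h, 10.01 and 9.67 at 12 h, and 11.56 and 11.83 at 24 h. The arrays at 4 h overlapped those at 0 h, and from 8 h on all arrays lay above both 0 h arrays. At 24 h the level was 13.7-fold that at 0 h (3.78 ± 0.47, 95% confidence interval 2.69 to 4.87, adjusted p = 0.00221). The differences from 0 h were 0.68 at 4 h, 1.21 at 8 h and 1.92 at 12 h, with adjusted p of 0.734, 0.484 and 0.0822. From 12 h to 24 h the mean rose by 1.86 ± 0.47 (unadjusted p = 0.00444, adjusted p = 0.245), so no single step between neighbouring times passed the threshold, while 24 h against 4 h did (3.09, adjusted p = 0.00905).

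The rise of Siglecf was set beside markers of eosinophils and macrophages. All 6 eosinophil markers measured lay under 5 on both 24 h arrays, and their summed intensity was 114.4 to 115.5 at 24 h, against 119.3 to 127.8 at 0 h. Of 10 macrophage markers, 9 lay under 5 on both 24 h arrays, with a sum of 163.5 to 193.6 at 24 h, against 249.4 to 308.1 at 0 h. Adgre1 was at 5.82 and 5.09 at 24 h, against 7.17 and 6.31 at 0 h. The summed intensity of neither list was higher at 24 h than at 0 h. Only 6 of 9 listed eosinophil markers were measured. At 24 h they lay below the median intensity of the arrays, so their sum is near background and decides little. The part of either list in the rise of Siglecf was not tested.

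Siglech had 6.25 and 6.11 at 0 h, 6.54 and 6.60 at 4 h, 7.53 and 7.92 at 8 h, 7.41 and 8.91 at 12 h, and 8.08 and 9.80 at 24 h. Every array at 4 h or later lay above both 0 h arrays, and the replicates spread widely at 12 and 24 h. At 24 h the level was 6.78-fold that at 0 h (2.76 ± 0.60, adjusted p = 0.021). That call was lost without 0 h replicate 1 (2.83, adjusted p = 0.11), without 0 h replicate 2 (2.69, adjusted p = 0.125) and without 24 h replicate 2 (1.90, adjusted p = 0.0731). Replicate 1 at 4, 12 and 24 h had low 5′ signal, with a Gapdh 3′ minus 5′ difference of 2.09 to 2.78, against 0.01 to 0.10 on the other 7 arrays. Without these 3 arrays the difference in Siglech was 1.55 at 8 h (adjusted p = 0.0197), 2.73 at 12 h (adjusted p = 0.00701) and 3.62 at 24 h, and all 3 times passed. With the Gapdh difference as a covariate it was 1.56 at 8 h (adjusted p = 0.0351), 2.59 at 12 h (adjusted p = 0.00346) and 3.40 at 24 h.

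The summed intensity of pDC markers overlapped between 24 h and 0 h. It was 4829.7 to 7196.1 at 24 h, against 5856.2 to 7853.5 at 0 h. Of 9 tested, 2 were called higher and none lower (list median -0.16, against -0.01 over all probe sets tested). Over all probe sets 7.77% were called higher and 6.39% lower. Ccr9 lay under 5 at every time, while Ly6d was at 6.63 and 7.10 at 24 h, against 5.26 and 5.61 at 0 h. All 8 cDC markers tested were called higher at 24 h, against 7.77% of all probe sets. Their sum was 9885.6 to 15121.1 at 24 h, against 1615.4 to 2078.0 at 0 h. Their part in the rise of Siglech and Siglecf was not tested.

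Siglecg had 6.92 and 6.91 at 0 h, 6.89 and 6.87 at 4 h, 6.96 and 7.16 at 8 h, 7.77 and 7.38 at 12 h, and 8.50 and 8.14 at 24 h. Its level stayed within a narrow band up to 8 h and was above it on both arrays at 12 and 24 h. At 24 h it was 2.64-fold that at 0 h (1.40 ± 0.20, adjusted p = 0.00372), and at 12 h the difference of 0.66 did not pass (adjusted p = 0.145).

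Cd22 was the only member called lower at 24 h. Its leading probe set had 9.01 and 8.52 at 0 h, 7.34 and 7.90 at 4 h, 7.99 and 7.95 at 8 h, 8.18 and 7.96 at 12 h, and 7.20 and 7.07 at 24 h. Both 0 h arrays lay above all later arrays, and the 24 h arrays were the lowest. At 24 h the level was 3.09-fold lower than at 0 h (-1.63 ± 0.24, adjusted p = 0.00454). The difference of -1.14 at 4 h had an unadjusted p of 0.00153 and an adjusted p of 0.196. Without 4 h replicate 2 the differences at 4 h were -1.42 in Cd22 and 1.25 in Cd33. The array left at 4 h was then replicate 1, which had low 5′ signal. Without 4 h replicate 1 they were -0.86 and 0.04. The second Cd22 probe set had only 1 array above 5 and was not tested. It was at 3.71 and 3.47 at 24 h, against 5.67 and 4.82 at 0 h, in the same direction. The B cell list summed to 416.7 to 695.5 at 24 h, against 614.9 to 708.7 at 0 h.

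Cd33, Siglece and Siglec1 did not pass the threshold at any time. Cd33 had 7.79 and 7.23 at 24 h, against 6.64 and 6.51 at 0 h (0.94, unadjusted p = 0.0378, adjusted p = 0.152). Siglece had 5.70 and 6.00 at 24 h, against 5.16 and 5.40 at 0 h (0.57, unadjusted p = 0.0142, adjusted p = 0.0795), and it passed with the Gapdh covariate (0.63, adjusted p = 0.0364). In both genes the 24 h arrays lay above the 0 h arrays. The 3 Siglec1 probe sets lay at 3.23 to 3.72, 4.72 to 5.35 and 5.84 to 6.43 over all 10 arrays, and the first of them was not tested.

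**Figure D4:**
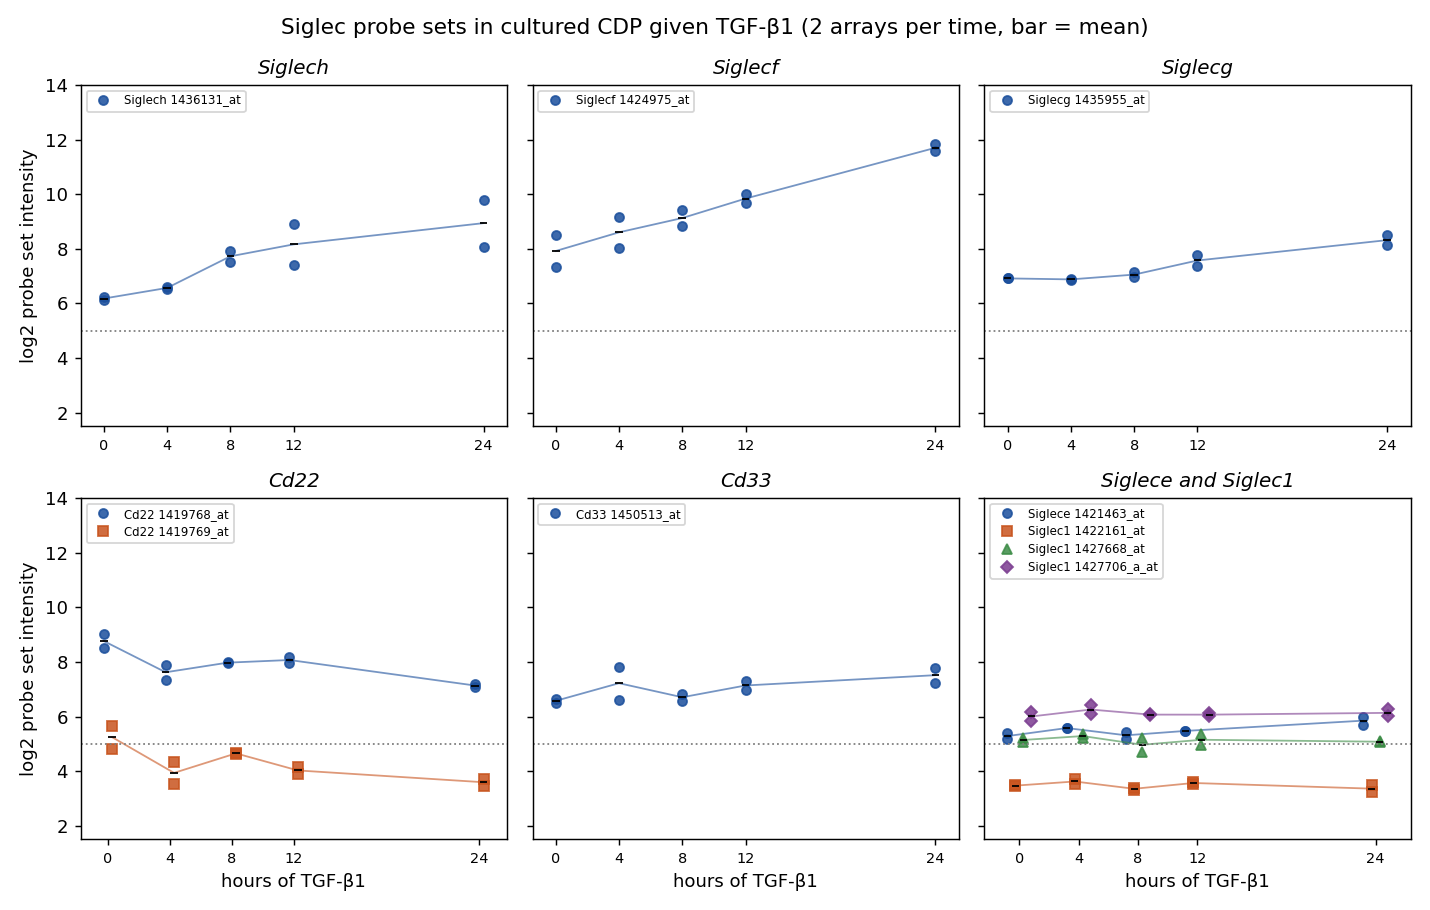
Log2 probe set intensity (y axis) of each Siglec gene in cultured CDP against hours of TGF-β1 (x axis). Points are arrays, 2 per time, bars are means joined by lines, and the dotted line is the level of 5. Siglecf climbs to 11.56 and 11.83 at 24 h, Siglech and Siglecg end higher and Cd22 lower than at 0 h, and Siglece and Siglec1 stay within a narrow band.

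Of the 10 probe sets, 8 (of 7 genes) were tested in the TGF-β1 series. At 4, 8 and 12 h limma called 0 of them, against 0.278%, 0.677% and 2.94% of 26606 probe sets, while 1, 3 and 4 of the 8 had an unadjusted p under 0.05. At 24 h 4 were called, 3 higher (Siglecf, Siglech and Siglecg) and 1 lower (Cd22), against 14.2% of all (7.77% higher, 6.39% lower). The F-test over all times called 3, Siglecf (adjusted p = 0.0169), Siglecg (adjusted p = 0.0166) and Cd22 (adjusted p = 0.038), against 5.74% of all, and Siglech had an adjusted p of 0.101. Leaving out 1 array at a time left 0 to 3 F-test calls. The Siglecf call was lost without 0 h replicate 2 (adjusted p = 0.0552), 24 h replicate 1 (0.0877) or 24 h replicate 2 (0.0964), Siglecg without any 1 of the 0 h and 24 h arrays, and Cd22 without any 1 of the 0, 8, 12 and 24 h arrays. Without the 3 arrays of low 5′ signal the F-test gave Cd22 an adjusted p of 0.0557 and Siglech 0.00672.

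Over the 10 TGF-β1 arrays, Siglecf was most like Ptgfrn (r = 0.988), Atl1 (0.985) and Ccr1 (0.984), a chemokine receptor gene that ranged from 8.73 to 10.98. Siglech was most like Stard3 (r = 0.976), Calm4 (0.974) and Amer2 (0.973). None of these genes was among those named for the same member across the cell types, and the arrays share groups, so the coefficients describe likeness.

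Some genes that make Siglec ligands were called at 24 h. With 1 probe set per gene, 2435 of 12653 were called at 24 h, a higher share than over all probe sets. Of 17 sialyltransferases tested, 3 were higher and 1 lower than at 0 h, where 14.2% of all probe sets were called, and the list median of 0.04 was close to the -0.01 over all. St8sia6 was at 3.96 and 3.0 at 0 h, 5.09 and 4.34 at 4 h, 6.16 and 5.63 at 8 h, 7.40 and 7.12 at 12 h, and 9.23 and 8.57 at 24 h (5.42 ± 0.40, adjusted p = 0.000301). St8sia1 was at 7.09 and 6.65 at 0 h, 8.66 and 7.85 at 4 h, 9.21 and 9.06 at 8 h, 10.43 and 9.98 at 12 h, and 11.51 and 11.17 at 24 h (4.47 ± 0.31, adjusted p = 0.000205). Both had a higher mean at each successive time, and no later array overlapped those at 0 h. St6galnac4 was lower (-1.89 ± 0.32, adjusted p = 0.00753). Of 9 supply genes Cmah was called higher (1.55 ± 0.37, adjusted p = 0.0304) and Npl lower (-1.45 ± 0.31, adjusted p = 0.019). Siae, which removes O-acetyl groups from sialic acid, was higher (0.69 ± 0.15, adjusted p = 0.021), the only call among 3 genes of that list.

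Among 12 signalling genes 3 were called higher and 1 lower at 24 h, with a list median of 0.51 and 14.2% of all probe sets called. Blnk was at 7.41 and 7.91 at 24 h, against 6.12 and 5.67 at 0 h (1.77 ± 0.25, adjusted p = 0.00364). Tyrobp was at 13.89 and 13.87 at 24 h, against 13.00 and 12.78 at 0 h (0.99 ± 0.16, adjusted p = 0.00687). Both adaptor genes were higher at 24 h and in pDC and cDC than in the matching CDP, as Siglech was. Plcg2, a phospholipase gene of the same signalling chain, was also higher (0.98 ± 0.16) and the kinase gene Btk was lower (-0.92 ± 0.22, adjusted p = 0.0312). Mag, the only other Siglec gene with a probe set of its own here, lay at the floor of 2.25 in the cell types and was not called at any time of TGF-β1.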

How the data were processed

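RNA from 20 mouse samples was hybridised to 1 array each. The values are log2 intensities as deposited by the authors, computed with GCRMA per the submitters' processing notes, which name no version. Per the labels' protocols, 1000 ng of RNA was labelled with a one-cycle kit for MPP, CDP, pDC and cDC, 250 ng with a 3′ IVT kit for the TGF-β1 series, and 50 ng with a 3′ IVT kit for in vivo CDP.

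The Siglec genes and all lists were chosen with earlier results of these data known, among them the rise of Siglecf. Probe sets were named from GEO's platform annotation: 34958 have 1 gene symbol, 932 have several and 9211 are not named here. In pathway and marker lists each gene is counted once, by its leading probe set, and the shares set beside them are over all probe sets. With 1 probe set per gene those shares were higher, such as 4298 of 9120 in in vivo CDP against CDP. From a list, up to 3 called genes with the largest difference are named per comparison. The marker genes Ccr9, Ly6d, Cox6a2, Tcf4, Tlr7, Prg2, Blk, Fcrla, Ms4a1, Cd79b and Adgre1, and Btk, were named after their values were seen. For likeness, the 3 genes with the highest correlation are named for members whose group means span 2 log2 units.

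From the deposited values, 3 limma fits (version 3.58.1 in R 4.3.3) were made: MPP, CDP, pDC and cDC, the same with in vivo CDP, and the TGF-β1 series. Each used all probe sets without array controls (45037) that lay above 5 on 2 or more arrays. Tests are two-sided, p-values are Benjamini-Hochberg adjusted over all probe sets tested, and a call is an adjusted p under 0.05. Where both arrays of the lower group lay under 5 in the cell types, the fold is given as at least the mean of the higher group over 5. Summed marker intensities are sums of unlogged values. The fit was run on simulated arrays with known differences and independent noise, as a check of the code only. That check does not cover arrays that deviate together, as same-numbered arrays did in the TGF-β1 series. The number of arrays limits the precision. Alternatives were quantile normalization, median centring, no filter, a filter at 6, raising values under 5 to 5, 1 probe set per gene, trend and robust eBayes, a replicate block, the Gapdh covariate, leaving out the 3 arrays of low 5′ signal, and leaving out each array.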

Additional observations from a re-analysis of the deposited data

How the results depend on the processing

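Siglech in pDC kept its call under every alternative run (leaving out arrays, 9.26 to 10.5 against CDP and 5.56 to 6.23 against cDC), as did Siglecf at 24 h of TGF-β1 (3.19 to 4.37). Of 845 values under other settings, 808 kept direction and side of the threshold, as did 385 of 440 values without 1 array. The cause of the changes was not tested. In CDP against MPP, 2 Siglec calls became 0 with no filter, 1 with values under 5 raised to 5, and 0 to 1 without an array. In in vivo CDP against CDP, 6 became 2 with no filter and 3 to 5 without an array. Against 0 h, calls at 8 h became 1 with the Gapdh covariate and 1 without the 3 arrays of low 5′ signal. At 12 h there was 1 under each of these. Calls at 4 h changed only without 4 h replicate 2, when the array left there was replicate 1, of low 5′ signal. The F-test calls became 0 to 3 without an array, and the adjusted p of Siglecf there 0.00927 to 0.0964.

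The labels do not say what the replicate numbers share, so the fits without them are the ones reported. Deviations of same-numbered arrays correlated by -0.0238 to 0.577 in the cell types and by 0.147 to 0.833 over all 10 pairs of times in the TGF-β1 series. The highest, 0.675 to 0.833, were between 4, 12 and 24 h, the times at which replicate 1 had low 5′ signal. Without those times, 0 and 8 h correlated by 0.603. Whether same-numbered arrays are paired was not tested. With the number as a replicate block, 2 Siglec probe sets were called at 12 h, Siglecf (adjusted p = 0.0172) and Siglech (adjusted p = 0.0426), Siglece passed at 24 h (adjusted p = 0.0318), Siglech passed the F-test (adjusted p = 0.024), Cd33 passed in in vivo CDP against MPP (adjusted p = 0.0319) and against pDC (adjusted p = 0.0454), and no other Siglec call changed.

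Differences near 0 changed sign. The second Siglec1 probe set at 12 h was -0.024 after median centring and -0.021 after quantile normalization, and 0.044 at 24 h with the Gapdh covariate. Siglecg at 4 h was 0.032 after quantile normalization. Without an array, Cd33 ranged from -0.28 to 1.32 in CDP against MPP and from -0.021 to 0.28 in pDC against cDC, and the Cd22 probe sets from -0.40 to 0.19 and from -0.48 to 0.21 in pDC against cDC. Siglece ranged from -0.11 to 0.16 at 8 h. This Siglec1 probe set ranged from -0.42 to 0.070 at 8 h, -0.19 to 0.21 at 12 h and -0.13 to 0.0049 at 24 h, and the third from -0.090 to 0.22 at 8 h, -0.091 to 0.22 at 12 h and -0.026 to 0.29 at 24 h.

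Over all probe sets, 861 were called in CDP against MPP, or 445 with no filter, 7041 in cDC against CDP, or 4184, and 3647 in pDC against cDC, or 2359. At 4, 8, 12 and 24 h there were 74, 180, 783 and 3766, or 174, 577, 1948 and 6164 with the block, 207, 996, 2373 and 6395 with the Gapdh covariate, and 40, 764 and 1211 at 4, 8 and 12 h without the 3 arrays. The F-test gave 1526, or 3469 with the block and 4357 with the covariate. Without an array these were 205 to 571 in CDP against MPP, 1746 to 2264 in pDC against cDC, 3 to 1537, 20 to 47, 121 to 161 and 1063 to 2563 at 4, 8, 12 and 24 h, and 314 to 3756 in the F-test.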
